A study of Homo sapiens with 6 samples.

Results

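The enzymes that add phosphates to soluble inositol phosphates and remove them again were examined in MDA-MB-231 cells, an established triple-negative breast cancer line, after silencing of HMGA1. Of the 10 enzymes considered (IPMK, INPP5A, IP6K1, IP6K2, ITPK1, IPPK, PPIP5K1, PPIP5K2, INPP1 and IMPA1), 8 have a transcript row of their own on the array, among 14232 genes that do. Transcript rows of IPPK also list CENPP and the row of IMPA1 also lists SLC10A5, so no level is given for these 2 genes, and rows of IPMK and PPIP5K1 shared with other genes were not used. IPMK and INPP5A were chosen by their values in this same comparison, where they ranked 62 and 22 by p among 22011 transcripts, and the remaining enzymes were added as their pathway. The values of IPMK and INPP5A are therefore a description without a test. RNA was collected 48 hours after transfection with HMGA1 siRNA (3 arrays) or with control siRNA (3 arrays) using Lipofectamine, and hybridized to Affymetrix exon arrays, from what the design calls independent knock-down experiments and control populations of this 1 line. The labels call the knock-down both shRNA and siRNA, and it was taken as siRNA, as the study describes it. All values are log2 expression after RMA, a method that corrects background, normalizes arrays and summarizes probes, so a difference of 1 is a doubling, and fold changes are those of HMGA1 siRNA over control siRNA.

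When phospholipase C cleaves a membrane phosphoinositide it releases inositol trisphosphate (IP3), which opens calcium channels of the endoplasmic reticulum. INPP5A ends this signal by taking a phosphate off IP3, and INPP1 and the lithium-sensitive monophosphatase IMPA1 carry the product on to free inositol. In the opposite direction IPMK and ITPK1 add phosphates to IP3 and related isomers, IPPK completes the fully phosphorylated ring, IP6, and the IP6 kinases and PPIP5 kinases build pyrophosphates on it. IPMK also phosphorylates a membrane phosphoinositide. IPMK, a kinase, and INPP5A, a phosphatase, thus share IP3 as a substrate.

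HMGA1 is a chromatin protein that binds the minor groove of AT-rich DNA, and the promoters are shown so that the base composition of IPMK can be set beside that of 2 other members, IP6K1, a kinase of the same family, and INPP1, the phosphatase with higher values. Each sequence is the stretch of 250 bases before a RefSeq start site, 5′ to 3′ on the gene's strand (GRCh38.p14; IPMK chr10:58267895-58268144, minus strand; IP6K1 chr3:49786543-49786792, minus strand, the first listed of 2 start sites; INPP1 chr2:190343339-190343588, plus strand). Capitals mark the GC box GGGCGG and the CCAAT box CCAAT on either strand, and n is an unknown base.
IPMK: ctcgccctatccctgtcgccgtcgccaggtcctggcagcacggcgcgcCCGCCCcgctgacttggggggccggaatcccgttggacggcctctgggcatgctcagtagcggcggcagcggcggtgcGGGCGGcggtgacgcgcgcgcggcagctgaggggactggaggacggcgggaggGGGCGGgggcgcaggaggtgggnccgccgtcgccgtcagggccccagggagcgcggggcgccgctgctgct
IP6K1: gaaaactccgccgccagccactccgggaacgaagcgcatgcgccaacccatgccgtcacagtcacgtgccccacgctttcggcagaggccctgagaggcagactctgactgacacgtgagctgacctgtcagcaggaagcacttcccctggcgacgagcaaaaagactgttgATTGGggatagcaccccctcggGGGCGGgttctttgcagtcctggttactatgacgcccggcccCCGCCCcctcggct
INPP1: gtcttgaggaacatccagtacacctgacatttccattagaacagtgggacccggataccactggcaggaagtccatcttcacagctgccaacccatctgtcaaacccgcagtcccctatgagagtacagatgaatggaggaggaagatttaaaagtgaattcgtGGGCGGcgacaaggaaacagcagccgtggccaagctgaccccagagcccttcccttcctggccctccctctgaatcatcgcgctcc

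The IPMK stretch was 21.3% A and T, lower than all but 4.64% of the 35116 promoters in the table, whose median was 42.0% with quartiles of 32.0% and 53.6%. That of IP6K1 was 36.4% A and T and that of INPP1 45.6%. IPMK held 36 CpG dinucleotides and 3 GC boxes, IP6K1 19 and 2, and INPP1 8 and 1, and a GC box was present in 42.6% of all promoters. This composition was not particular to IPMK, since ITPK1 had 24.8% A and T, 33 CpG and 3 GC boxes and IP6K2 had 30.8% A and T and 4 GC boxes. The AT-rich letters AATATT occurred in 6.41% of all promoters and in 0 of the 8 members that have a promoter in the table. A CCAAT box, found in 32.0% of all, occurred in IP6K1, IP6K2 and PPIP5K1. INPP5A and IMPA1 were not among the members matched. Each member was read only at its first listed start site, of 2 in IP6K1 and ITPK1 and of 4 in PPIP5K1. The shares of all promoters count every listed start site, and the other sites of these members were not read. These letters describe the DNA alone, since binding was not measured.

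HMGA1, the targeted gene, on a row that also lists its pseudogene HMGA1P8, was at 9.81, 9.65 and 9.76 with HMGA1 siRNA and at 10.11, 10.25 and 10.35 with control siRNA, 0.709 of the control level, with an adjusted p = 0.806 in limma. The mesenchymal markers VIM and CD44 and the receptor EGFR lay in the brightest of 5 groups of transcripts by signal, while the hormone receptors ESR1 and PGR, the leukocyte marker PTPRC and the endothelial marker PECAM1 lay in the 2 dimmest, and GATA3, CDH1 and EPCAM, markers of luminal cells, in the third. The arrays numbered replicate 3 stood apart in each group, as earlier results of these data had shown before this comparison was chosen. In limma 103 of 22011 transcripts (0.468%) passed an adjusted p of 0.05, a count that ran from 0 to 1046 with 1 array left out. Among them CDH1, the epithelial cadherin, was at 7.28 on the HMGA1 siRNA array and 7.56 on the control siRNA array of that number, and between 8.78 and 9.40 on the other 4, and EPCAM was higher on the replicate 3 arrays by 1.08 (adjusted p = 0.0435 in limma). Fold changes of the members and the pathway median are therefore also given without the replicate 3 arrays, and the part of that difference in the results was not tested beyond this.

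IPMK and INPP5A were the members with the lowest fold changes. IPMK was at 8.77, 8.94 and 8.68 on the HMGA1 siRNA arrays, against 9.54, 9.48 and 9.14 on the control siRNA arrays. The groups did not overlap, the HMGA1 siRNA arrays being lower by at least 0.20, and in each group the replicate 3 array was the lowest. The means were 8.80 ± 0.14 and 9.39 ± 0.22 (SD, n = 3 each), which puts the log2 fold change at -0.59, with a standard error of 0.13, and the level at 0.663 of control. In bulk RNA, fewer cells with a transcript and less of it per cell cannot be told apart. Without the replicate 3 arrays the IPMK value was -0.66, and with any 1 array left out it ran from -0.72 to -0.51.

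INPP5A was at 8.63, 8.63 and 8.69 on the HMGA1 siRNA arrays, against 9.16, 9.24 and 9.11 on the control siRNA arrays. The groups were at least 0.42 apart, more than the distance in IPMK, and neither group spread as widely as in IPMK. The means were 8.65 ± 0.034 and 9.17 ± 0.067 (SD, n = 3 each), which puts the log2 fold change at -0.52, with a standard error of 0.087, and the level at 0.698 of control. Without the replicate 3 arrays it was -0.57, and with any 1 array left out it ran from -0.55 to -0.48. In neither gene did a setting turn the direction, but leaving out arrays could not have done so, since the groups do not overlap.

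**Figure D1:**
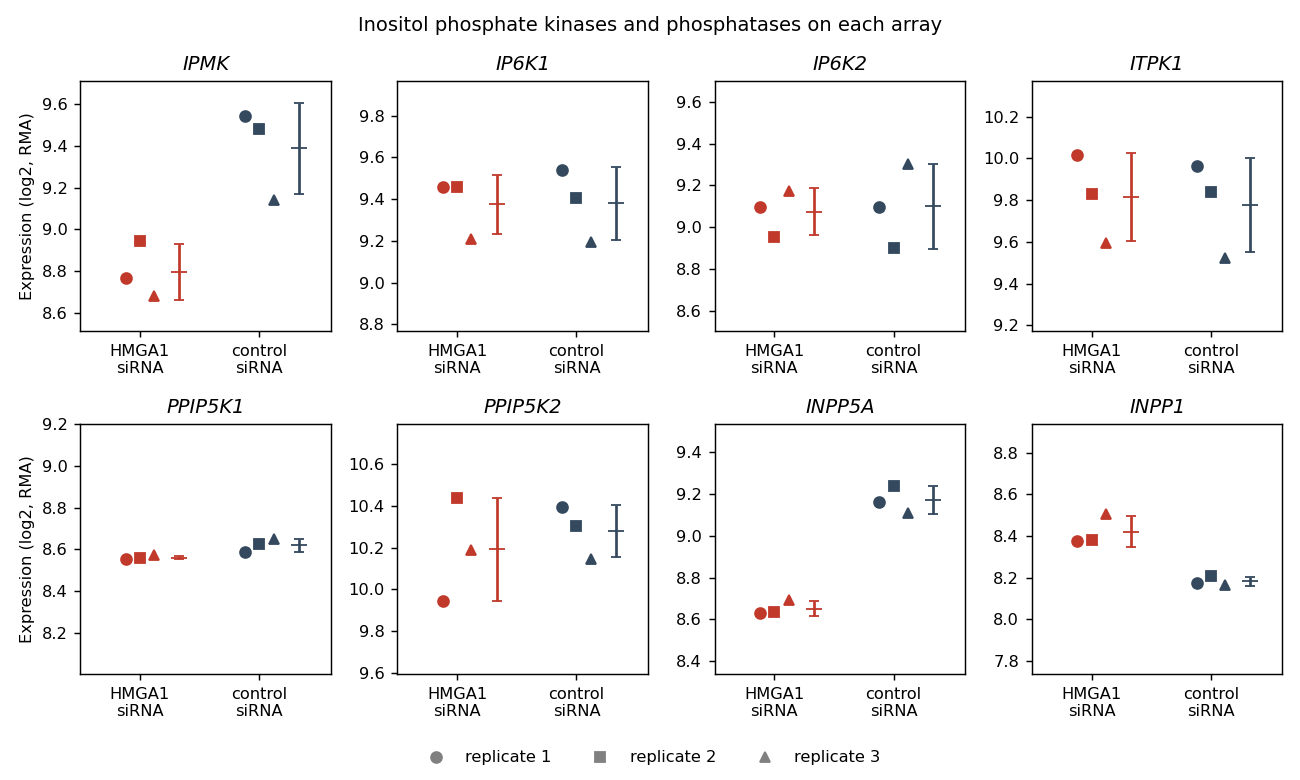
Log2 expression (RMA) of the 8 measured enzymes on each array, HMGA1 siRNA in red and control siRNA in dark blue, with the replicate number as the marker shape and the mean ± SD (n = 3) beside the points; every panel spans the same 1.2 log2 units. IPMK and INPP5A sit lower on all 3 HMGA1 siRNA arrays, INPP1 sits higher by at least 0.17, and in IP6K1 and ITPK1 the triangle of replicate 3 is the lowest in each group.

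The other kinases showed no such distance. IP6K1, which makes the pyrophosphate IP7 from IP6, was at 9.46, 9.46 and 9.21 with HMGA1 siRNA and at 9.54, 9.41 and 9.19 with control siRNA, a fold change of -0.0049 on the log2 scale. Its paralog IP6K2 was at 9.10, 8.95 and 9.17 with HMGA1 siRNA and at 9.10, 8.90 and 9.30 with control siRNA, a fold change of -0.026. ITPK1, which phosphorylates tris- and tetrakisphosphates, was at 10.02, 9.83 and 9.60 with HMGA1 siRNA and at 9.96, 9.84 and 9.52 with control siRNA, a fold change of 0.038. Without the replicate 3 arrays the values were -0.015 for IP6K1, 0.026 for IP6K2, which thus changed sign, and 0.021 for ITPK1. In these 3 kinases the groups overlapped and the arrays of a group lay further apart than the group means did.

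The PPIP5 kinases add a further phosphate to the pyrophosphates. PPIP5K1 was at 8.55, 8.56 and 8.57 with HMGA1 siRNA and at 8.59, 8.63 and 8.65 with control siRNA. These groups did not overlap, but they were only 0.016 apart at their nearest arrays and the estimate was -0.060 (standard error 0.082). PPIP5K2 was at 9.95, 10.44 and 10.19 with HMGA1 siRNA and at 10.39, 10.31 and 10.15 with control siRNA, a fold change of -0.090 (standard error 0.14). The HMGA1 siRNA arrays of PPIP5K2 spanned the control arrays on both sides, and without HMGA1 siRNA replicate 1 the estimate was 0.034. Without the replicate 3 arrays it was -0.16, and that of PPIP5K1 was -0.051.

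INPP1, which removes a phosphate from inositol bisphosphates, had higher values with HMGA1 siRNA. It was at 8.37, 8.38 and 8.51 on the HMGA1 siRNA arrays, against 8.17, 8.21 and 8.16 on the control siRNA arrays. The groups did not overlap, the HMGA1 siRNA arrays being higher by at least 0.17. The means were 8.42 ± 0.075 and 8.18 ± 0.023 (SD, n = 3 each), which puts the log2 fold change at 0.24, with a standard error of 0.087, and the level at 1.18 times that of control. The adjusted p was 1.00 in limma, taken over all transcripts. Without the replicate 3 arrays it was 0.19, and with any 1 array left out it ran from 0.19 to 0.26.

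**Figure D2:**
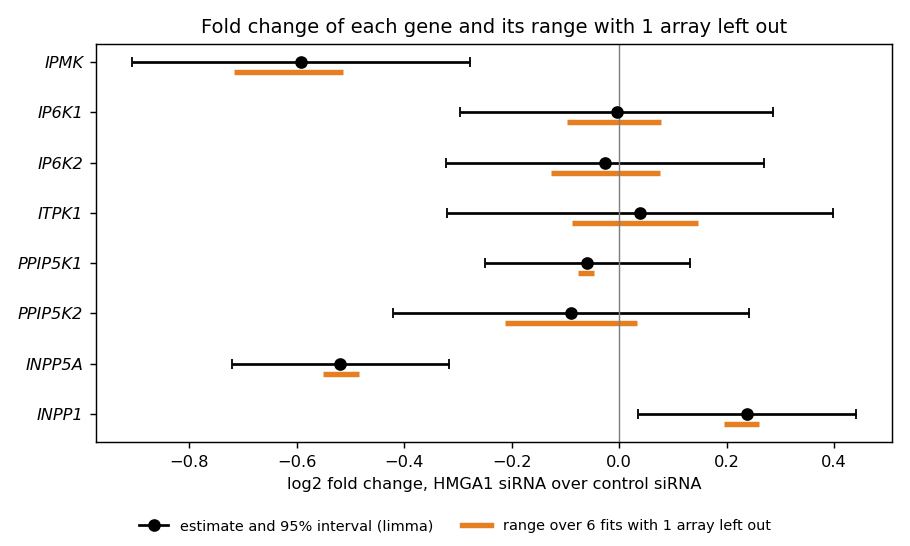
Log2 fold change of HMGA1 siRNA over control siRNA for each enzyme (points) with its 95% interval from limma (black bars, not adjusted for the number of genes) and the range of the estimate over the 6 fits with 1 array left out (orange bars). The intervals of IPMK and INPP5A, genes chosen by their p in this comparison, are a description and not a test. The estimates run from -0.59 in IPMK to 0.24 in INPP1, and the orange bars of IP6K1, IP6K2, ITPK1 and PPIP5K2 cross 0.

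Set against IPMK and INPP5A, the other 6 measured members lay between -0.090 and 0.24 with a median of -0.016. Their 95% intervals, taken gene by gene, reached down to -0.30 in IP6K1, -0.32 in IP6K2, -0.32 in ITPK1, -0.25 in PPIP5K1 and -0.42 in PPIP5K2, and began above 0 in INPP1, at 0.034. A fold change of the size measured in INPP5A was outside each of these intervals, and smaller changes lay within most of them. Since IPMK and INPP5A were picked for their low values, the contrast with the other 6 follows in part from that choice and was not tested. In limma 0 of the 6 passed an adjusted p of 0.05, as did 0 of 22011 transcripts (0%), and 1 of the 6, INPP1, had an unadjusted p under 0.05, against 728 transcripts (3.31%). Of the 8 members, 3 had all arrays of HMGA1 siRNA below those of control siRNA, where 3.51% of all transcripts did, and 1 had all above, where 4.28% did, but 2 of the 3 were chosen for this pattern.

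The pathway around these enzymes was described with 67 genes in lists by role, the members included, of which 54 have a row of their own. Leaving out IPMK and INPP5A, 16 had a positive and 36 a negative log2 fold change, and the median was -0.031. Over all transcripts 10139 were positive and 11872 negative, and the median was -0.012. With the pair included the median was -0.036, with 16 above and 38 below, and after median centring of the arrays 22 were above and 32 below. Without HMGA1 siRNA replicate 2 the median was -0.0045, with 24 above and 30 below, and without the replicate 3 arrays it was -0.027, with 20 above and 34 below. In limma 0 of the 54 passed, and 1 of the 52 without the pair, INPP1, had an unadjusted p under 0.05, where 3.31% of all transcripts did. Of the 52, 3 had all HMGA1 siRNA arrays below the control siRNA arrays, where 3.51% of all transcripts did. Another 3 had all above, where 4.28% did.

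The 10 measured kinases, IPMK among them, had a median of -0.053, with 2 positive and 8 negative values. Over all transcripts 10139 were positive and 11872 negative, the background for this list and those that follow. IPMK and the phosphatase INPP5A were chosen by their low values, so their negative signs are fixed by that choice. IP6K3, the remaining IP6 kinase, was at -0.17 (standard error 0.11), and ITPKC, which phosphorylates IP3 directly, at 0.0072. The 17 measured phosphatases, INPP5A among them, had a median of -0.028, with 5 positive and 12 negative values. SYNJ2, a synaptojanin that acts on membrane phosphoinositides, was at -0.19 (standard error 0.10), with the groups 0.0065 apart, and NUDT3, which hydrolyses inositol pyrophosphates, was at 0.18 (standard error 0.098). IPMK and INPP5A lay further from 0 than these 4 genes, but this follows at least in part from that choice and was not tested.

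Upstream of IP3, the 11 measured phospholipases C had a median of -0.049, with 2 above 0 and 9 below. They ran from -0.15 in PLCD3 to 0.064 in PLCB3, with PLCE1 at -0.12 and the dim PLCB4 at 0.047, and in each of the 11 the groups overlapped. The IP3 receptors, the calcium channels that IP3 opens, were at 0.019 for ITPR1 and -0.018 for ITPR3. Of 8 genes of inositol uptake, synthesis, breakdown and return to lipids, 2 were positive and 6 negative, and their median was -0.036. The inositol transporters SLC5A3 and SLC2A13 were at 0.12 and 0.017, CDS1, which makes the lipid precursor of phosphatidylinositol, at -0.12, and the inositol oxygenase MIOX at -0.072.

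Proteins that bind inositol phosphates were measured by 6 of 9 listed genes, 4 of them positive and 2 negative, and their median was 0.019. The RNA editing enzyme ADARB1, which holds IP6 in its core, was at 8.50, 8.50 and 8.52 on the HMGA1 siRNA arrays, against 8.38, 8.37 and 8.36 on the control siRNA arrays. These groups did not overlap and each was tight, and the log2 fold change was 0.13 (standard error 0.081, adjusted p = 1.00 in limma). The deacetylase HDAC1 was at 0.16, its relative HDAC3 at -0.16, and the mRNA export factor GLE1 at -0.14. In HDAC1 and GLE1 the groups were 0.024 and 0.020 apart, and in HDAC3 they overlapped.

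**Figure D3:**
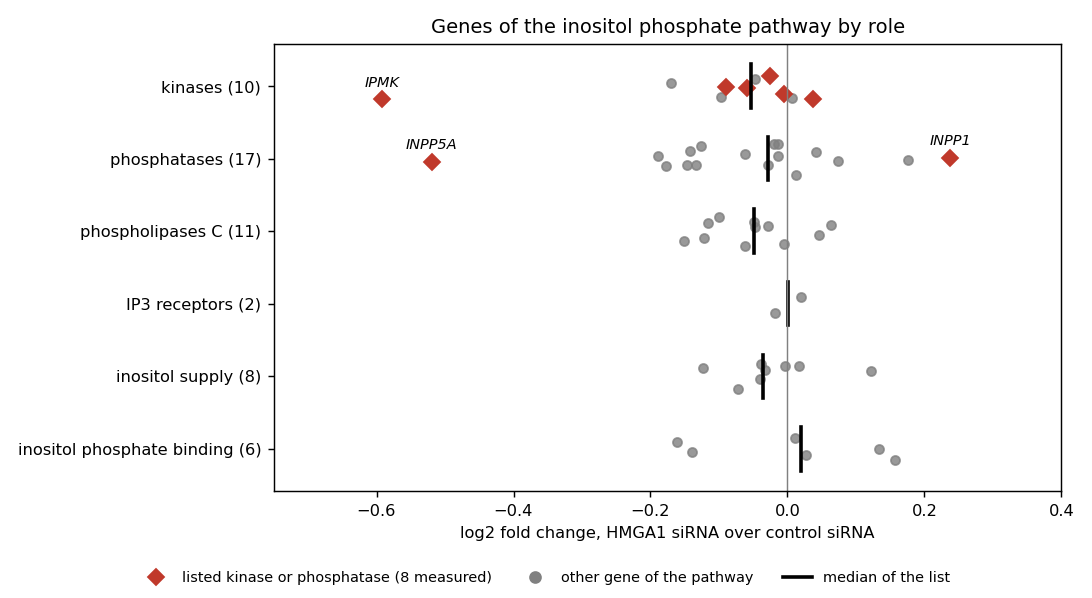
Log2 fold change of HMGA1 siRNA over control siRNA (horizontal axis) for the 54 measured pathway genes, 1 row of points per role with the number of genes in brackets; red diamonds are the 8 listed enzymes, grey circles the other genes, and black bars the median of each role. IPMK is at -0.59 and INPP5A at -0.52, and the other 52 genes run from -0.19 to 0.24. IPMK and INPP5A were chosen by their values in this comparison, so their distance from the others is not a test.

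The replicate number gave a second comparison on the same arrays, chosen because earlier results of these data showed that the replicate 3 arrays stand apart. The p by which IPMK and INPP5A were ranked depends on the spread within each group, to which replicate 3 belongs, so their values here are again a description without a test. Set against replicates 1 and 2 with the treatment in the model, the replicate 3 arrays differed most in ITPK1, with means of 9.56 on the replicate 3 arrays and 9.91 on the others, a log2 difference of -0.35 (standard error 0.095, adjusted p = 0.199 in limma). IP6K1 differed by -0.26 (standard error 0.083, adjusted p = 0.250), IP6K2 by 0.23 (standard error 0.10, adjusted p = 0.412) and INPP1 by 0.052 (standard error 0.083). IPMK differed by -0.27 (standard error 0.098) and INPP5A by -0.018 (standard error 0.084). ITPK1 and IP6K1 stood near 0 by treatment, while IPMK was low in both comparisons. Whether the 2 differences are related was not tested.

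Of the 6 members other than IPMK and INPP5A, 0 passed an adjusted p of 0.05 in limma for the replicate number, and 2, IP6K1 and ITPK1, had an unadjusted p under 0.05, against 3062 of all transcripts (13.9%). Both replicate 3 arrays lay below the other 4 in 2 members, IP6K1 and ITPK1, where 13.0% of all transcripts did, and above them in 1, IP6K2, where 11.4% did. Of the 52 pathway genes other than IPMK and INPP5A, 0 passed, where 0.468% of all transcripts did. An unadjusted p under 0.05 in limma was found in 8 of the 52, where 13.9% of all transcripts had one. Of the 52, 29 were above 0 and 23 below, beside 12588 above and 9423 below over all transcripts. These counts are therefore not a result about the pathway. The dim CDS1 was higher on the replicate 3 arrays by 0.42 (adjusted p = 0.130 in limma). OCRL, a phosphatase of membrane phosphoinositides named here after its values were seen, was lower by 0.54 (adjusted p = 0.152 in limma). No pathway gene had a smaller adjusted p than CDS1.

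**Figure D4:**
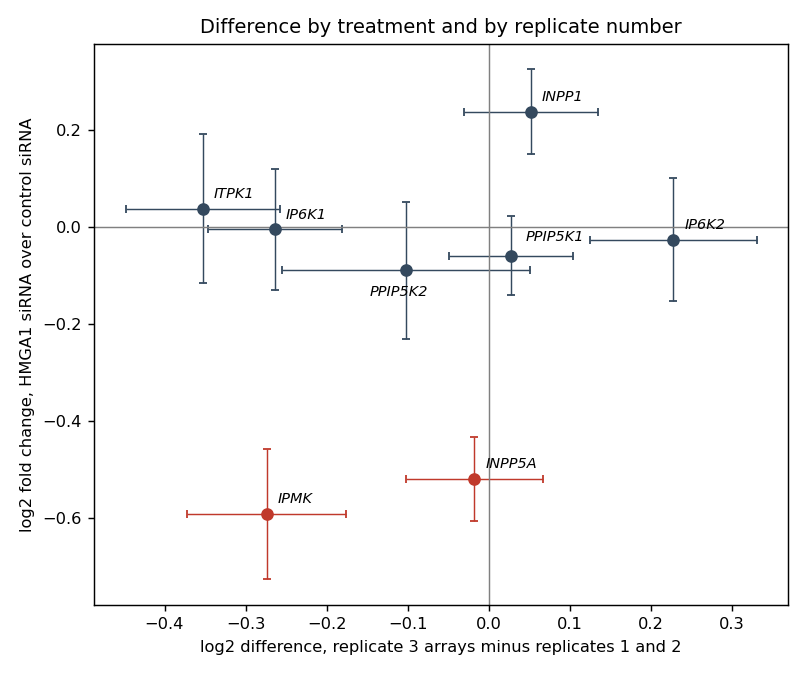
For each measured enzyme, the log2 difference of the replicate 3 arrays from replicates 1 and 2 (horizontal axis) and the log2 fold change of HMGA1 siRNA over control siRNA (vertical axis), with bars of 1 standard error from limma; IPMK and INPP5A are in red. ITPK1 and IP6K1 lie to the left, at -0.35 and -0.26 on the horizontal axis and near 0 on the vertical axis, INPP5A lies low near 0 on the horizontal axis, and IPMK lies low on both axes.

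Likeness of pattern was measured over the 6 arrays as the root mean square difference between 2 genes' log2 values, each centred on its own mean, among 14232 genes. Nearest to IPMK were B3GALT5 (0.069), GRB2 (0.076) and AMIGO2 (0.091), with log2 fold changes of -0.66, -0.56 and -0.52. Nearest to INPP5A were CNDP2 (0.052), TAF9B (0.059) and WSB2 (0.062), with log2 fold changes of -0.43, -0.53 and -0.42. IPMK and INPP5A differed from each other by 0.14 by the same measure. All 6 neighbours also had lower values with HMGA1 siRNA, as any gene near to IPMK or INPP5A by this measure must.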

How the data were processed

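The values used are those the authors deposited, log2 expression of 22011 transcripts on 6 arrays after RMA in the oligo package. The submitters' processing notes also name hg18 and limma, with no versions, and no coordinates of that build are given here. Signal over background limits dim transcripts, but the rows of the 8 members lay in the third to the fifth of 5 brightness groups. Of the other pathway genes named, IP6K3, PLCB4, ITPR1 and CDS1 lay in the 2 dimmest groups, so their values are less certain.

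Arrays were grouped by their titles. Their medians ran from 8.28 to 8.38, no 2 held identical values, and all were used without further scaling. HMGA1 siRNA was compared with control siRNA with limma 3.58.1 in R 4.3.3 (lmFit and eBayes, two-sided), as in the study's methods, p-values adjusted by Benjamini-Hochberg for all transcripts, and a threshold of 0.05. A second fit held a term for replicate number 3 beside the treatment, a comparison chosen with earlier results of these data known. A gene was taken from the row annotated to it alone with the highest mean, with symbols updated through RefSeq gene IDs (14404 of 14432 rows with 1 symbol matched). HMGA1 is the exception. Named genes are the members, HMGA1, the markers of the cell line, up to 2 genes per side of each list with the smallest p, and the 3 nearest patterns of IPMK and INPP5A. Members and lists were chosen with earlier results of these data known. Promoters are from RefSeq. The code was checked on data simulated with independent noise at spreads taken from these arrays. No rate of calls from this check is used here. As alternatives the arrays were median centred or quantile normalized, a robust prior with a trend and array weights were used, the dimmest 40% of transcripts were dropped, and the fits were made with only transcripts of 1 symbol, with a replicate block, without single arrays or both of number 3, and with the mean over a gene's rows.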

Additional observations from a re-analysis of the deposited data

How the results depend on the processing

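The log2 fold changes of IPMK and INPP5A stayed between -0.76 and -0.51 and between -0.57 and -0.48 over 14 other settings, of which the filter on dim transcripts, the robust prior, the restriction to 1 symbol and the block were added for single genes after seeing the data. That of INPP1 stayed above 0 and that of PPIP5K1 below 0 in all of these, while IP6K1, IP6K2, ITPK1 and PPIP5K2 changed sign in 4, 4, 3 and 1 of the 14. The filter, the robust prior, the restriction and the block act on the standard error and p. They cannot change an estimate with these balanced arrays, so they are no check of it. Where groups do not overlap, as in IPMK, INPP5A, INPP1 and PPIP5K1, leaving out arrays cannot turn the sign. With array weights 198 of 22011 transcripts passed between HMGA1 siRNA and control siRNA, and none of the 6 members other than IPMK and INPP5A did. IPMK and INPP5A were among the 198, but they were chosen by their p in this comparison, so that is no test of them. Their contrast with the other 6 follows in part from that choice. The weights were uneven, at 6.80 for the third HMGA1 siRNA array and 0.275 to 2.21 for the others, so the count depends mostly on 1 array. No other setting gave a call. The replicate block also left 0 transcripts past the threshold, and it cannot move the pathway median of -0.036. Deviations of arrays with the same replicate number correlated at -0.20, 0.26 and 0.53, so the numbers were not taken as pairs.

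The number of transcripts that differed on the replicate 3 arrays was 407 with the dimmest 40% left out, 371 with a trended and robust prior, 212 with only transcripts of 1 symbol and 6341 with array weights. It was 1046 without HMGA1 siRNA replicate 1 and 66 without HMGA1 siRNA replicate 2. In limma it was 0, with 1218 at an unadjusted p under 0.05, when HMGA1 siRNA replicate 3 was left out, and also 0 for the control siRNA arrays left out in turn, with 2097 for replicate 1, 1868 for replicate 2 and 1012 for replicate 3. The cause was not tested. Of the 8 members, 4 passed with array weights, where 6341 of 22011 transcripts did, and 0 passed in the other settings. The 8 include IPMK and INPP5A, whose values are a description without a test, so the count is not a result about the members. With 3 arrays in a group, precision is limited throughout.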
